A study of Mus musculus with 23 samples.

Results

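The genes described here are 9 members of the S100 family outside its alarm pair S100a8 and S100a9: S100g, S100a1, S100a4, S100a6, S100a10, S100a11, S100a13, S100a14 and S100a16. Other members outside that pair, such as S100a5 and S100b, are not in the list. They are 9 of 17 protein-coding S100 genes in GENCODE vM21 and 9 of 22350 genes counted in RNA-seq. The list was selected on the estimated read counts of these same libraries, with the differences between groups already known, so the p-values given for its members describe the fit over all genes and are no independent support for any direction. All samples came from C57BL/6 mice. RNA-seq compared WT organoids (VillinCre.ERT2.RPL22.HA, 2 lines), Rptor fl/fl organoids (VillinCre.ERT2.Rptor.fl/fl, 2 lines) and stem cell enriched (SCe) organoids, which are VillinCre.ERT2.RPL22.HA cultures grown with 10 µM CHIR 99021, a GSK3 inhibitor, and 1.5 mM valproic acid (3 libraries). Ribo-seq, which sequences the mRNA fragments covered by ribosomes, compared SCe organoids with VillinCre.ERT2.Rptor.fl/fl.RPL22.HA organoids (3 libraries each), and Lgr5Cre.ERT2.RPL22.HA with Lgr5Cre.ERT2.Rptor.fl/fl.RPL22.HA small intestine (3 mice each), where an HA tag on the ribosomal protein RPL22 allows ribosomes to be pulled down from the cells in which Cre was active. Villin drives Cre in the whole intestinal epithelium and Lgr5 in stem cells of the crypt base. The labels call the treatment of the Rptor fl/fl and mouse samples untreated, whereas the study's methods describe induction of Cre with tamoxifen. The Rptor fl/fl lines of the RNA-seq lack the RPL22.HA allele that the WT and SCe organoids carry, so in mRNA the deletion and the absence of that allele cannot be told apart. In every comparison of Rptor fl/fl with SCe organoids the genotype and the CHIR 99021 and valproic acid cannot be told apart either.

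S100 proteins are small calcium-binding proteins that work mostly as dimers. Each subunit has an N-terminal EF-hand that is typical of the family and a C-terminal EF-hand, in most members with a canonical calcium-binding loop. Calcium binding usually opens a surface on which target proteins dock. In the intestine the best known is calbindin-D9k, the product of S100g, a vitamin D-dependent protein that buffers and carries calcium through the absorptive enterocyte, while S100a6, S100a10 and S100a11 are widely expressed in epithelia, where they bind annexins.

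The canonical C-terminal calcium loop is shown first because it is the part the members share and because it separates them. A search for the 12-codon pattern of such a loop in the annotated coding sequence found it in 7 of the 9 genes and not in S100a10 or S100a14. The capitals mark the codons for the residues at places 1, 3, 5 and 12 of the loop, which hold the ion. Sequences are on the coding strand of mm10 and credited to GENCODE vM21.
S100g: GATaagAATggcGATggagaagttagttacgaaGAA
S100a1: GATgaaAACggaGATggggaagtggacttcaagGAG
S100a4: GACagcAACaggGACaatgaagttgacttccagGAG
S100a6: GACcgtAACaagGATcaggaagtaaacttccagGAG
S100a11: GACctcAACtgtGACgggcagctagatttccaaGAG
S100a13: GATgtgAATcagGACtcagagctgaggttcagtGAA
S100a16: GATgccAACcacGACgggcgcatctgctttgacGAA
The S100g loop lies at chrX:162962169-162962204 on the minus strand, in exon 3, and the S100a6 loop at chr3:90614233-90614268 on the plus strand, also in exon 3. The search itself required aspartate at place 1 and glutamate at place 12. It allowed aspartate, asparagine or serine at place 3, and these or glycine at place 5. Within these limits all 7 loops have an asparagine codon at place 3 and an aspartate codon at place 5.

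Of the 9 genes, 8 lie on chromosome 3 and S100g lies on the X chromosome (chrX:162961992-162964599, minus strand). S100a1, S100a13, S100a14, S100a16, S100a4 and S100a6 sit within 113 kb (chr3:90511034-90624181), whereas S100a11 and S100a10 form a pair 2.90 Mb further on. S100a1 (minus strand) and S100a13 (plus strand) point away from each other with only 42 bases between their annotated starts. Those bases, at chr3:90514393-90514434 and read on the strand of S100a13, are shown as the shared upstream sequence of both genes, beside the 100 bases before S100a11 (chr3:93520388-93520487, plus strand) and before S100g (chrX:162964600-162964699, minus strand), the members whose mRNA was, in that order, among the least and the most changed in SCe organoids. Promoter letters are from RefSeq on GRCm38.p6, which held 7 of the 9 genes.
S100a1 and S100a13: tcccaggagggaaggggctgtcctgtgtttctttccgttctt
S100a11: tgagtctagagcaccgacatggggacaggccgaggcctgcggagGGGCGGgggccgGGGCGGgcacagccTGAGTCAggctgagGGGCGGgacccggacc
S100g: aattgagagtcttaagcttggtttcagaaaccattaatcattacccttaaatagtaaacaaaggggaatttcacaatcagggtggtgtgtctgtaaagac
Capitals mark GGGCGG and TGANTCA, searched on both strands together with TATAAA and GGAATG. Over windows from 250 bases before to 50 after the start, GGGCGG was found at S100a11 and S100a16 (35.7% of 32851 promoters), TGANTCA at the same 2 genes (7.81%), TATAAA at S100a4 and S100g (13.6%), and GGAATG at no member (14.7%). A match is a description of the letters alone.

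Reads of some members cannot be kept apart from those of other genes. Of the 28-base stretches of S100a11 transcripts, 49.8% also occur in 8 annotated processed pseudogenes, and of those of S100a4, 49.5% occur in Gm42674, a gene that overlaps S100a4 on the same strand. The share was 1.16% for S100a10, and no stretch of the other 6 genes was found elsewhere in the annotated transcripts. Values of S100a11 and S100a4 are therefore uncertain.

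RNA-seq depth was 27439459 to 67598878 assigned reads per line or library. Ribo-seq depth was 1106178 to 8257457 footprints in organoids and 772077 to 8238388 in mice, so footprint values carry the larger counting error. Rptor mRNA was lower in Rptor fl/fl than in WT organoids (log2 fold change −1.71, adjusted p = 0.00516), but Rptor footprints of organoids labelled Rptor fl/fl were not (−0.53, adjusted p = 0.318), so these samples are named below as the libraries with the label Rptor fl/fl. In mice the Rptor difference was −0.28 (adjusted p = 0.15). Lgr5 stood at 6.32 to 11.4 CPM (read counts scaled by library size and composition, per 1e6) in 5 mice and at 45.8 CPM in Rptor fl/fl mouse 1. All 13 enterocyte, 8 goblet, 10 immune, 8 fibroblast and 10 pancreatic acinar markers had footprints in every mouse. The summed enterocyte markers reached 66690 to 77483 CPM there, against 523 to 858 CPM for 10 stem cell markers in the pulldown labelled for Lgr5 cells. In organoid RNA-seq the 10 immune markers summed to at most 1.57 CPM. In SCe against WT organoids 1 of the 10 stem cell markers rose and 3 fell (median log2 fold change 0.155), while their sum was 2682 to 3748 CPM against 5216 and 6977 CPM, of which Olfm4 made 2864 and 4433 CPM in the WT lines. Lgr5 stood at 219 to 337 CPM against 197 and 215 CPM.

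In WT organoids S100a6 was the most abundant member. Compared per kilobase of annotated transcript, its mRNA level was 924 ± 10.6 CPM per kb (SD, n = 2 lines), followed by S100a11 at 474 ± 46.0, S100g at 282 ± 82.0 and S100a10 at 242 ± 2.83. S100a14 (71.2 ± 5.23), S100a16 (31.8 ± 2.90), S100a1 (22.5 ± 1.56), S100a13 (9.41 ± 0.98) and S100a4 (1.01 ± 0.35) came after. S100g and S100a10 overlapped between lines and each of the other neighbours in this order did not. In SCe organoids S100a11 led (421 ± 6.66 CPM per kb, n = 3), S100a6 (252 ± 62.8) and S100a10 (230 ± 39.4) overlapped, and S100a16, S100a13 and S100a1 (7.89 to 8.52) overlapped as well. The 9 genes together took 1139 and 1235 CPM of the WT mRNA, 1540 and 1360 CPM of the Rptor fl/fl mRNA and 548 to 601 CPM of the SCe mRNA. S100a6 alone made 42.4% to 46.6% of that sum in WT and Rptor fl/fl lines and 21.7% to 32.8% in SCe libraries.

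**Figure D1:**
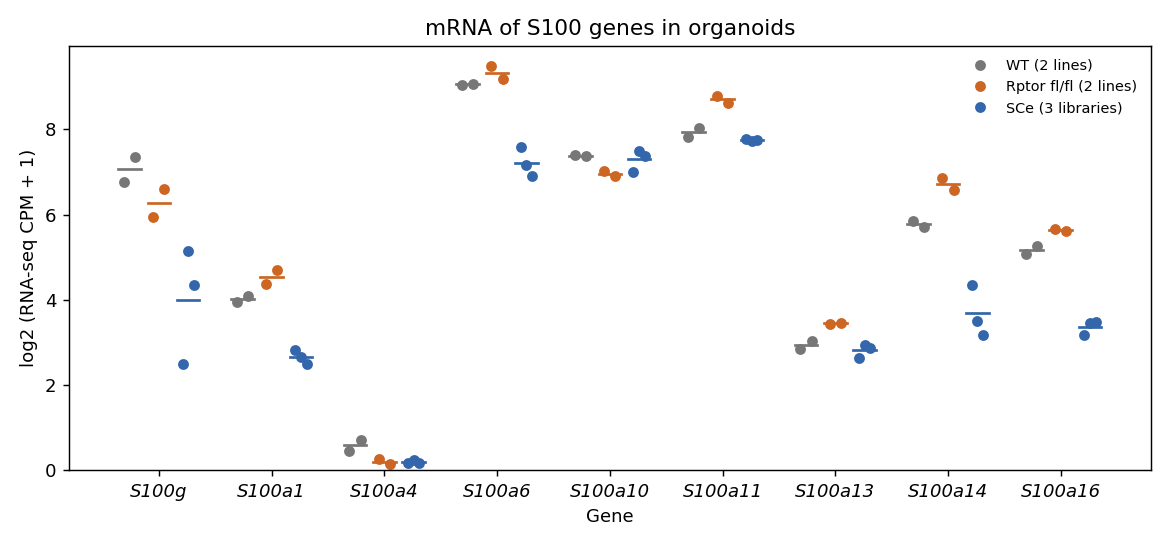
RNA-seq level of each gene as log2 (CPM + 1) on the vertical axis, with 1 point per organoid line (WT and Rptor fl/fl) or library (SCe) and a bar at the group mean of the plotted values. S100g, S100a1, S100a6, S100a14 and S100a16 lie lowest in SCe organoids in every library, while S100a10, S100a11 and S100a13 of SCe organoids lie near WT.

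In mRNA, 4 members were higher and 1 was lower in Rptor fl/fl than in WT organoids among 9 tested (edgeR, adjusted p under 0.05 over all genes), where 22.6% of all genes passed. The lines of both genotypes did not overlap for any member, as for 69.0% of all genes tested. The median log2 fold change was 0.47 over the members and −0.005 over all genes. In SCe against WT organoids 6 members were lower and none was higher among 9 tested (42.3% of all genes passed), with a median of −1.76 against 0.023, and 7 members did not overlap (69.0% of all genes). In Rptor fl/fl against SCe organoids 6 of 8 tested members were higher and none was lower (42.7% of all genes passed), with a median of 2.03 against −0.014, and 7 did not overlap (68.2%). These comparisons share their libraries pairwise, so their directions are not separate observations. Because the members were chosen from these contrasts, nothing is read from the shares. Of the 8 goblet markers 5 rose in Rptor fl/fl and 6 fell in SCe against WT organoids, with sums of 1774 and 1916 CPM in WT, 3108 and 4318 CPM in Rptor fl/fl and 248 to 483 CPM in SCe organoids. The 11 fetal-like markers summed to 654 and 663, 1568 and 2342, and 299 to 559 CPM in the same order, although their median log2 fold change in SCe against WT was 1.246 with 2 higher and 1 lower. The sum of the 8 fibroblast markers was at most 0.666, 17.8 and 84.8 CPM, nearly all of it Fn1 in the latter 2 groups, with Col3a1 and Lum at 0 in every RNA-seq line and library. Other lists moved too. In Rptor fl/fl against WT 6 of 8 Paneth, 6 of 10 stem cell, 2 of 9 enteroendocrine and 2 of 13 enterocyte markers fell. Of 7 tested tuft markers 1 rose there. In SCe against WT 7 of 9 enteroendocrine markers fell, and no Paneth marker passed. Of 7 tuft markers 1 rose and 3 fell, and of 13 enterocyte markers 1 rose and 1 fell. The part of any of these markers in the members' values was not tested. In bulk cultures fewer cells of a type and less RNA per cell cannot be told apart.

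S100g, the calcium carrier of enterocytes, had the widest spread. The 2 WT lines had 108 and 163 CPM of its mRNA, the 2 Rptor fl/fl lines had 60.0 and 95.2 CPM, and the SCe libraries had 4.65, 34.3 and 19.5 CPM. All SCe libraries were below all WT lines, and SCe replicate 1 was the lowest by far. The log2 fold change of SCe against WT was −2.77 (standard error 0.775, adjusted p = 0.0402). It was −2.32 (adjusted p = 0.00232) without SCe replicate 1, and the call was lost without WT line 1 (−3.06, adjusted p = 0.113), WT line 2 (−2.45, 0.169) or SCe replicate 3 (−2.76, 0.12). In the same SCe replicate 1 the 13 enterocyte markers summed to 1046 CPM, against 7606 and 8616 CPM in the other two, and their part in the S100g value was not tested. Rptor fl/fl against WT gave −0.80 (standard error 0.296, adjusted p = 0.116), and Rptor fl/fl against SCe 1.99 (standard error 0.756, adjusted p = 0.0871), which was 1.53 (adjusted p = 0.0108) without SCe replicate 1.

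Of 11 other genes for calcium transport and the vitamin D response, 7 could be tested in Rptor fl/fl against WT organoids and 1 fell, where 22.6% of all genes passed. It was the vitamin D receptor gene Vdr (306 ± 1.1 to 143 ± 32.9 CPM, SD, n = 2 lines each, log2 fold change −1.09, adjusted p = 0.0189). In SCe against WT 1 rose and 3 fell among 8 tested, where 42.3% of all genes passed. Vdr was at −0.30 there (adjusted p = 0.439), and Atp2b1, the pump that passes calcium out of the basal side of the enterocyte, at −0.09 (adjusted p = 0.679). Trpv6, the apical calcium channel, had at most 6 reads in any RNA-seq line or library and was not tested.

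S100a10 and S100a11 are partners of annexins. S100a10 binds annexin A2 without needing calcium and is a member in which no canonical C-terminal loop was found, whereas S100a11 binds annexin A1. S100a10 mRNA was 167 and 164 CPM in WT, 129 and 118 CPM in Rptor fl/fl, and 127, 179 and 166 CPM in SCe organoids. It was lower in both Rptor fl/fl lines (log2 fold change −0.42, standard error 0.0655, adjusted p = 0.0199), a call lost without WT line 1 (adjusted p = 0.0794) or WT line 2 (0.0804), and overlapped between SCe and WT (−0.05, 95% interval −0.46 to 0.36, adjusted p = 0.811). Against SCe organoids it stood at −0.35 (adjusted p = 0.144), or −0.48 (adjusted p = 0.00316) without SCe replicate 1.

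S100a11 mRNA was 226 and 259 CPM in WT, 441 and 392 CPM in Rptor fl/fl, and 219, 212 and 214 CPM in SCe organoids. Both Rptor fl/fl lines were above all other samples, and the SCe libraries lay just below the WT lines. The log2 fold change was 0.78 against WT (standard error 0.105, adjusted p = 0.0165, 0.0539 without WT line 1) and 0.95 against SCe (standard error 0.0841, adjusted p = 0.00187), and SCe was at −0.15 against WT (95% interval −0.36 to 0.058, adjusted p = 0.192). Of the partner annexins, Anxa2 fell in SCe against WT organoids (−1.71, adjusted p = 0.00398) and was at −0.23 in Rptor fl/fl against WT (adjusted p = 0.212), whereas Anxa1 rose in Rptor fl/fl against WT (1.44, adjusted p = 0.0334) and was at 0.75 in SCe against WT (adjusted p = 0.162).

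S100a6 (calcyclin) binds annexin A11 and the ubiquitin ligase adaptor encoded by Cacybp, and S100a4 binds non-muscle myosin IIA, encoded by Myh9. S100a6 mRNA was 528 and 537 CPM in WT, 717 and 577 CPM in Rptor fl/fl, and 190, 143 and 119 CPM in SCe organoids. The SCe libraries were all far below both other groups, with a log2 fold change of −1.80 against WT (standard error 0.204, adjusted p = 0.00358) and 2.11 for Rptor fl/fl against SCe (standard error 0.225, adjusted p = 0.00272). Both Rptor fl/fl lines were above both WT lines, but 0.28 (standard error 0.123) did not pass (adjusted p = 0.163), and it was 0.45 (adjusted p = 0.0377) without Rptor fl/fl line 2. Anxa11 rose in Rptor fl/fl against WT (0.91, adjusted p = 0.0126), Cacybp fell (−0.62, adjusted p = 0.0111) and Myh9 was at 0.34 (adjusted p = 0.0621).

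S100a4 was near the limit of detection. It had 20 and 31 reads in the WT lines, 10 and 6 in the Rptor fl/fl lines, and 4, 11 and 7 in the SCe libraries, or at most 0.625 CPM. SCe against WT gave −1.76 (adjusted p = 0.0232) and Rptor fl/fl against WT −1.74 (adjusted p = 0.0702). The first call was lost without WT line 1 (−2.10, adjusted p = 0.0693), WT line 2 (−1.37, 0.161), SCe replicate 2 (−1.95, 0.0511) or SCe replicate 3 (−1.64, 0.0763), and with the replicate number as a block (−1.67, 0.12). Since about as many of its 28-base stretches are shared with Gm42674 as are its own, these counts are uncertain beyond their size.

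S100a1 and S100a13, the neighbours that start 42 bases apart, are described side by side. S100a1 is best known in heart and muscle, where it acts on calcium release and uptake by the sarcoplasmic reticulum, and S100a13 takes part in the export of FGF1 and interleukin-1α. S100a1 mRNA was 14.4 and 16 CPM in WT, 19.8 and 24.8 CPM in Rptor fl/fl, and 6.09, 5.29 and 4.64 CPM in SCe organoids. The 3 groups did not overlap. SCe was lower than WT (−1.49, standard error 0.159, adjusted p = 0.00316), Rptor fl/fl was higher than SCe (2.07, standard error 0.178, adjusted p = 0.00179), and Rptor fl/fl against WT just missed the threshold (0.55, standard error 0.139, adjusted p = 0.0505). It passed with DESeq2 (adjusted p = 0.0101), with no count filter (0.0466), with the effective length offset (0.047), with the replicate block (0.0106), with technical libraries as replicates (0.001) and without Rptor fl/fl line 1 (0.0432), and it did not pass without WT line 1 (0.167), WT line 2 (0.12) or Rptor fl/fl line 2 (0.112).

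S100a13 mRNA was 6.23 and 7.20 CPM in WT, 9.87 and 9.90 CPM in Rptor fl/fl, and 5.22, 6.66 and 6.28 CPM in SCe organoids. SCe and WT overlapped (−0.13, 95% interval −0.59 to 0.33, adjusted p = 0.601), and Rptor fl/fl was higher than WT (0.56, standard error 0.124, adjusted p = 0.0391) and than SCe (0.71, standard error 0.166, adjusted p = 0.023). Leaving out any of the 4 lines ended the first call, with an adjusted p of 0.188, 0.0955, 0.106 and 0.0933 without WT line 1, WT line 2, Rptor fl/fl line 1 and Rptor fl/fl line 2. The second call was lost without Rptor fl/fl line 1 (0.119) or 2 (0.123), without SCe replicate 2 (0.0515) or 3 (0.0783), and with the replicate block (0.103). Whether the 2 neighbours differ from each other in their response was not tested. Fgf1 was at 1.02 in Rptor fl/fl against WT (adjusted p = 0.153).

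S100a14 and S100a16 are found mainly in epithelia, and S100a14 is the other member in which no canonical loop was found. S100a14 mRNA was 56.8 and 51.0 CPM in WT, 114 and 94.7 CPM in Rptor fl/fl, and 19.5, 10.4 and 8.03 CPM in SCe organoids. It had the largest rise among the members in Rptor fl/fl against WT (0.95, standard error 0.113, adjusted p = 0.0138) and against SCe (3.06, standard error 0.392, adjusted p = 0.00427), and both calls held without any single line or library. In SCe against WT it was lower (−2.08, standard error 0.383, adjusted p = 0.0122), a call lost without WT line 1 (−2.02, adjusted p = 0.0745) or WT line 2 (−2.16, 0.0666). S100a16 mRNA was 32.6 and 37.5 CPM in WT, 49.4 and 47.8 CPM in Rptor fl/fl, and 7.96, 9.88 and 10.1 CPM in SCe organoids. The 3 groups did not overlap, and SCe was lowest. The log2 fold change was −1.89 for SCe against WT (standard error 0.144, adjusted p = 0.00169), 2.38 for Rptor fl/fl against SCe (standard error 0.13, adjusted p = 0.00105) and 0.47 for Rptor fl/fl against WT (standard error 0.0922, adjusted p = 0.0301). The last of these was lost without WT line 1 (0.37, adjusted p = 0.13), Rptor fl/fl line 1 (0.45, 0.091) or Rptor fl/fl line 2 (0.51, 0.0587).

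**Figure D2:**
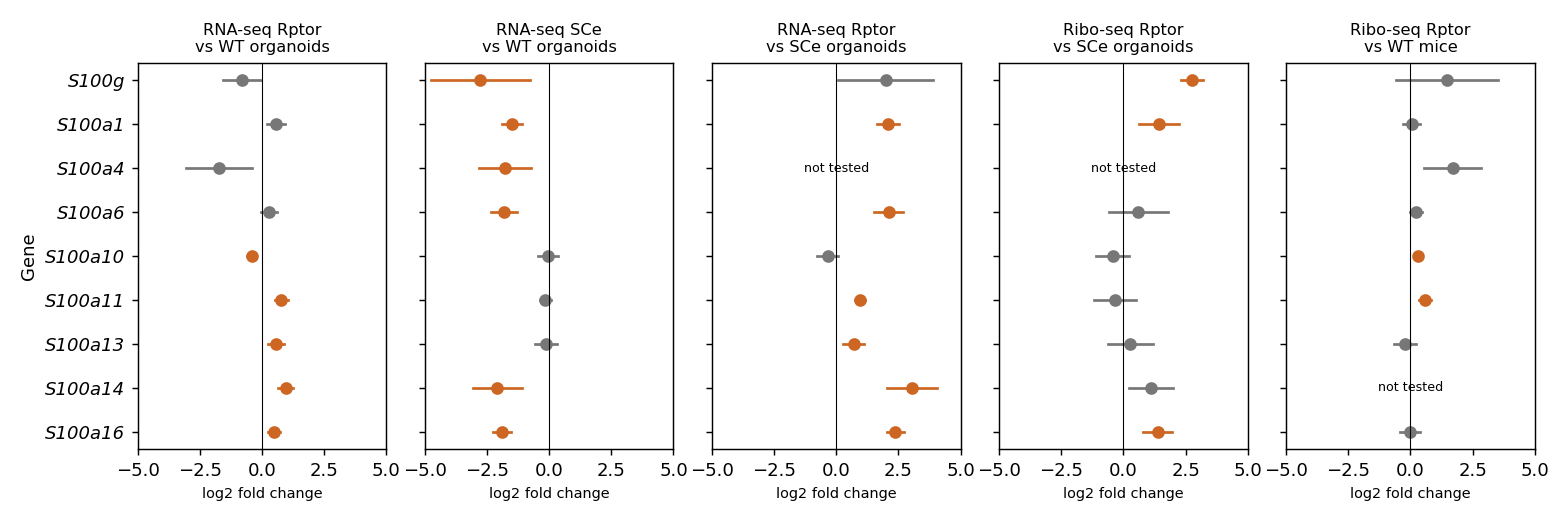
Log2 fold change of each gene in 5 comparisons (horizontal axis), with the 95% interval of edgeR's fit as a line; orange marks an adjusted p under 0.05 over all genes, grey the rest, and Ribo-seq panels with Rptor show the libraries with the label Rptor fl/fl. S100g, S100a1, S100a4, S100a6, S100a14 and S100a16 are orange below 0 in SCe against WT RNA-seq, while S100a10, S100a11 and S100a13 straddle 0 there.

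Footprints of SCe and labelled Rptor fl/fl organoids gave fewer calls. Of 8 tested members 3 were higher in the libraries with the label Rptor fl/fl and none was lower (16.5% of all genes passed), with a median of 0.86 against −0.023, and for 4 members the groups did not overlap (39.3% of all genes). SCe replicate 1 stood apart, since its 9 genes summed to 2987 CPM, against 921 and 1108 CPM in the other SCe libraries and 1945 to 2246 CPM in the libraries with the label Rptor fl/fl. Its 13 enterocyte markers summed to 2010 CPM, against 5020 and 5175 CPM in the other two. Without it 6 of the 8 members were called, and 2682 genes in all in place of 1781.

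S100g footprints were 39.1, 30.8 and 37.2 CPM in SCe libraries and 280, 239 and 211 CPM in those labelled Rptor fl/fl. The groups lay far apart (log2 fold change 2.76, standard error 0.192, adjusted p = 0.000237), and the call held under each alternative, with fold changes from 2.65 to 2.86. S100a16 footprints were 17.9, 11.1 and 11.8 CPM in SCe and 42.7, 30.5 and 33.2 CPM in the libraries with the label Rptor fl/fl, again without overlap (1.38, standard error 0.257, adjusted p = 0.00849). S100a1 footprints were 19.5, 6.84 and 7.63 CPM in SCe and 27.1, 30.0 and 33.5 CPM in the libraries with the label Rptor fl/fl (1.43, standard error 0.36, adjusted p = 0.0283). Each SCe library had at most 36 footprints on S100a1, and its call was lost without any single library but SCe replicate 1, with an adjusted p of 0.0747, 0.0894 and 0.11 without labelled Rptor fl/fl replicates 1, 2 and 3, and 0.0749 and 0.0599 without SCe replicates 2 and 3.

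S100a14 footprints were 36.4, 10.3 and 16.2 CPM in SCe and 55.7, 44.6 and 37.5 CPM in the libraries with the label Rptor fl/fl. The groups just did not overlap, and the difference did not pass (1.12, standard error 0.386, adjusted p = 0.0824) but did without SCe replicate 1 (1.68, adjusted p = 0.00323), with DESeq2 (1.11, 0.0469), with no count filter (1.16, 0.0343) and with the replicate block (1.22, 0.0357). Without any of the other 5 libraries it did not pass, with an adjusted p from 0.142 to 0.232. S100a6 footprints were 1326, 285 and 332 CPM in SCe and 1098, 881 and 983 CPM in the libraries with the label Rptor fl/fl. The high value was SCe replicate 1 alone, and the fold change moved from 0.61 (standard error 0.522, adjusted p = 0.461) to 1.67 (adjusted p = 0.000212) without it.

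The same library set the values of S100a10, S100a11 and S100a13. S100a10 footprints were 600, 272 and 303 CPM in SCe and 291, 276 and 306 CPM in the libraries with the label Rptor fl/fl (−0.43, adjusted p = 0.35, or 0.0165 with an adjusted p of 0.937 without SCe replicate 1). S100a11 footprints were 919, 296 and 391 CPM against 430, 426 and 405 CPM (−0.35, adjusted p = 0.557, or 0.28 with 0.183 without that library). S100a13 footprints were 27.1, 9.41 and 9.48 CPM against 21.9, 16.7 and 16.4 CPM (0.27, adjusted p = 0.679, or 0.95 with 0.0347 without it). In each of these 3 genes SCe replicate 1 was the highest of the 6 libraries. S100a4 had 3, 0 and 0 footprints in SCe and 0, 6 and 5 in the libraries with the label Rptor fl/fl and was not tested.

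**Figure D3:**
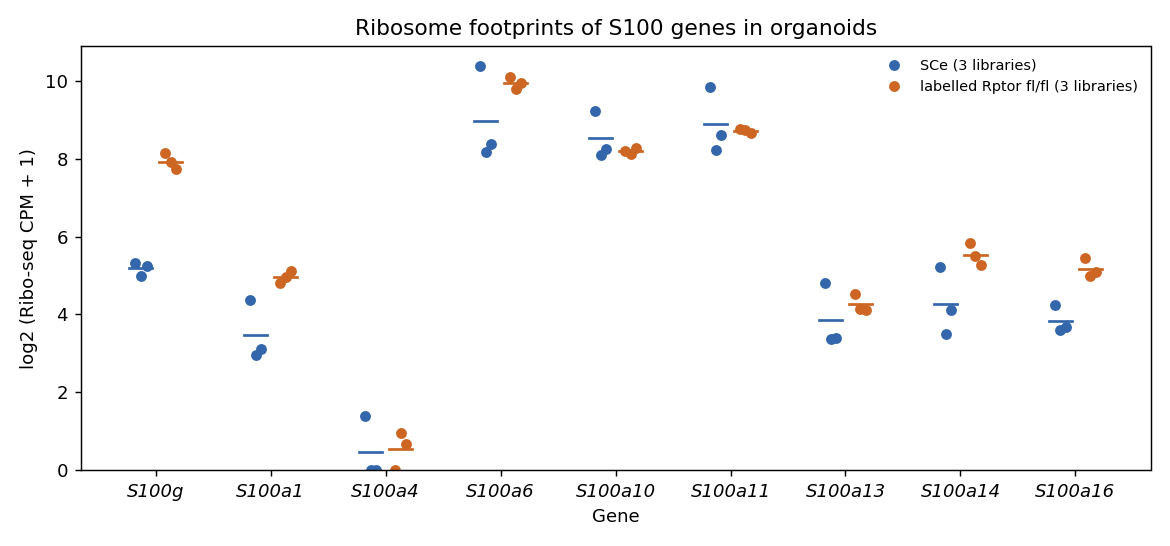
Ribo-seq level of each gene in organoids as log2 (CPM + 1), with 1 point per library in replicate order from left to right and a bar at the group mean of the plotted values. In S100a6, S100a10, S100a11 and S100a13 the leftmost SCe point, replicate 1, lies above the other SCe points, and in S100g the groups lie far apart.

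Translation efficiency, the change in footprints beyond the change in mRNA, was tested as the interaction of assay with group. The RNA-seq Rptor fl/fl lines lack RPL22.HA, and Rptor footprints did not pass as lower in the Ribo-seq libraries with that label. A difference between these organoids cannot be told apart from a change in translation. Fetal-like markers had a median log2 fold change of 1.865 in mRNA, −0.034 in footprints and −2.327 in translation efficiency (11, 8 and 8 tested). None of the 8 tested members passed in edgeR (2.93% of all genes did). DESeq2 called 2 members and 1206 genes in all, against 315 genes in edgeR. An unadjusted edgeR p under 0.05 was found for 3 members. How many of all genes had one was not counted, so nothing is read from that count. The median over the members was −0.759, against −0.031 over all genes, and 7 of the 8 values were below 0. Without SCe Ribo-seq replicate 1 the median was −0.183 and 4 of the 8 were below 0. The 3 genes were S100a14 (−1.89, standard error 0.579, adjusted p = 0.103), S100a16 (−0.93, standard error 0.307, adjusted p = 0.125) and S100a11 (−1.25, standard error 0.484, adjusted p = 0.181), of which DESeq2 called S100a14 (adjusted p = 0.0309) and S100a16 (0.0429). S100a14 also passed where the SCe cultures of the same number were paired across RNA-seq and Ribo-seq (−1.88, adjusted p = 0.0131), a fit that called 506 genes in place of 315 and no other member, and without SCe RNA-seq replicate 1 (−2.31, 0.0239). With technical libraries as separate replicates S100a14 (adjusted p = 0.028) and S100a16 (0.031) passed. S100a6 was at −1.45 (95% interval −3.02 to 0.12, adjusted p = 0.287), and without SCe Ribo-seq replicate 1 it moved to −0.38 (adjusted p = 0.401), S100a11 to −0.62 (0.0581) and S100a14 to −1.32 (0.139). S100g was the 1 member above 0 with all libraries (0.83, 95% interval −0.88 to 2.54, adjusted p = 0.6).

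**Figure D4:**
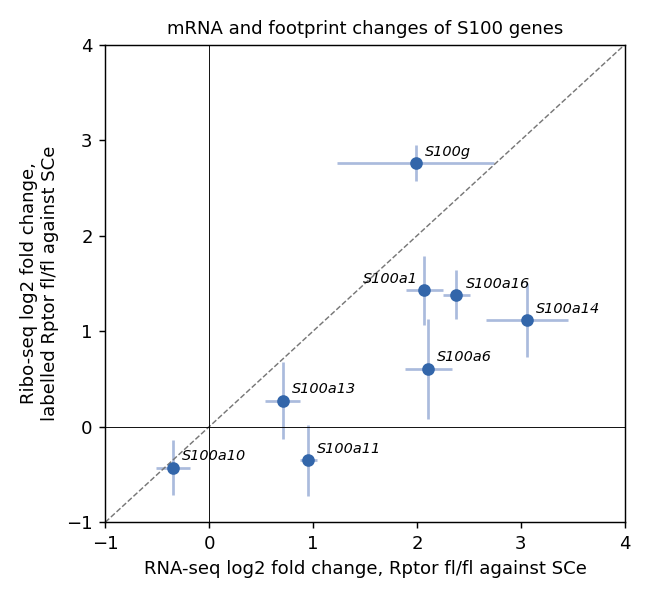
Log2 fold change in RNA-seq (horizontal) and in Ribo-seq (vertical) of Rptor fl/fl or labelled Rptor fl/fl against SCe organoids, for the 8 members tested in both, with the standard errors as lines and the line of equal change dashed. S100g lies above the dashed line, S100a10 close to it and the other 6 below it.

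Of the 8 members tested in both assays, all 8 had more footprints for their mRNA than the median gene in SCe organoids, and 6 had in organoids with the label Rptor fl/fl. In SCe organoids the ratio of footprint CPM to mRNA CPM was 4.09 for S100a6, 2.48 for S100a13, 2.46 for S100a10 and 2.42 for S100a11, where the median over 11347 genes was 0.851, and the lowest member, S100a16, had 1.45. Without SCe Ribo-seq replicate 1 these were 2.10, 1.62, 1.90, 1.65 and 1.28, and the lowest was S100a14 at 1.05, with a median of 0.894 over 11257 genes. For organoids with the label Rptor fl/fl it was 3.09 for S100g, 2.31 for S100a10, 1.50 for S100a6, 0.99 for S100a11, 0.717 for S100a16 and 0.43 for S100a14, with a median of 0.781 over 10730 genes. The ratios are of group means from separate libraries and have no error of their own. RNA-seq was counted on whole transcripts and Ribo-seq on coding sequences, and CPM here are scaled by library size alone. For Rptor fl/fl the assays also used organoids of different genotype, since the RNA-seq lines lack RPL22.HA. Footprints on the 5′ untranslated entries, which are counted apart from the coding sequence, made up 7.60%, 7.24% and 4.64% of S100a6 footprints in SCe libraries and 1.55%, 2.03% and 1.93% in the libraries with the label Rptor fl/fl, without overlap, as for 10.6% of 7210 genes. Over all genes the share was 6.99%, 5.42% and 2.97% in the same SCe libraries and between 3.82% and 4.25% in the others, and its part in the S100a6 values was not tested. For S100a10 the shares overlapped (12%, 8.62% and 5.49% against 7.83%, 9.90% and 7.33%). They also overlapped for each other member except S100a4, which had no footprints in some libraries. Pooled shares in SCe and labelled Rptor fl/fl organoids were 22.2% and 12.6% for S100a1, 21.8% and 18.5% for S100a16, and 14.9% and 12.9% for S100a14. S100a11, S100a13 and S100g lay at 1.47% or less. The median share over genes with at least 100 footprints was 3.88% in SCe and 4.05% in labelled Rptor fl/fl organoids.

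In the mouse pulldown S100a10 led with 990 ± 33.0 CPM per kb in WT mice (SD, n = 3), ahead of S100a6 at 346 ± 39.6 and S100a11 at 152 ± 31.5, and made 61.8% to 65.8% of the summed members. S100g stood at 29.2 ± 14.4 and overlapped with S100a13, as did S100a13 with S100a16 and S100a16 with S100a1. Mouse footprints were counted on sequences that include the 5′ region and those of organoids were not, so no level is compared between them.

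Of 8 tested members 2 were higher in Rptor fl/fl than in WT mice and none was lower (13.4% of all genes passed), with a median of 0.27 against −0.015, and 3 did not overlap (31.1% of all genes). S100a10 footprints were 474, 474 and 447 CPM in WT and 525, 581 and 621 CPM in Rptor fl/fl mice. The genotypes did not overlap, and the small difference passed (0.32, standard error 0.0773, adjusted p = 0.0135), though not without WT mouse 3 (0.29, adjusted p = 0.0849), Rptor fl/fl mouse 2 (0.31, 0.0635) or Rptor fl/fl mouse 3 (0.26, 0.0672). S100a11 footprints were 46.8, 68.5 and 68.7 CPM in WT and 105, 96.8 and 93.7 CPM in Rptor fl/fl mice, also without overlap (0.60, standard error 0.114, adjusted p = 0.00233), a call that held without any single mouse. The annexin partners were higher as well, Anxa2 by 0.25 (adjusted p = 0.0298) and Anxa1 by 0.71 (adjusted p = 0.0026).

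S100a4 had 0, 12 and 4 footprints in WT and 20, 19 and 55 in Rptor fl/fl mice, or 0, 5.48 and 0.731 CPM against 6.59, 5.79 and 6.95 CPM. The groups did not overlap, and 1.70 (standard error 0.54) lay at the threshold (adjusted p = 0.0501). It passed with no count filter (1.69, adjusted p = 0.00881) and without WT mouse 2 (3.31, 0.00214), and did not pass with DESeq2 (1.57, 0.121) or without WT mouse 3 (0.75, 0.462). Over all alternatives the adjusted p ran from 0.00214 to 0.462. The 8 fibroblast markers summed to 1086 to 1143 CPM in WT and 1506 to 1714 CPM in Rptor fl/fl mice, the 10 immune markers to 4651 to 4719 and 4450 to 4919 CPM. S100a8 and S100a9, which neutrophils carry, rose from means of 1.52 and 2.97 CPM to 29.1 and 45.7 CPM in the same mice. The part of these cells' RNA in the S100a4, S100a10 and S100a11 values was not tested.

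S100g rested on a single mouse. Its footprints were 7.58, 7.76 and 16.8 CPM in WT and 113, 6.09 and 3.66 CPM in Rptor fl/fl mice, with 342, 20 and 29 footprints in the latter. The high value was Rptor fl/fl mouse 1, the mouse in which Lgr5 also stood at 45.8 CPM. The fold change was 1.48 (standard error 0.962, adjusted p = 0.354) with all mice and turned to −1.50 (adjusted p = 0.00578) without Rptor fl/fl mouse 1. S100a6 footprints were 142, 110 and 123 CPM in WT and 130, 134 and 160 CPM in Rptor fl/fl mice and overlapped (0.22, 95% interval −0.0053 to 0.45, adjusted p = 0.197). S100a1 (0.05, 95% interval −0.29 to 0.39), S100a16 (−0.03, −0.44 to 0.38) and S100a13 (−0.22, −0.66 to 0.22) overlapped too. S100a14, with 4, 2 and 14 footprints in WT and 9, 4 and 27 in Rptor fl/fl mice, was not tested.

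**Figure D5:**
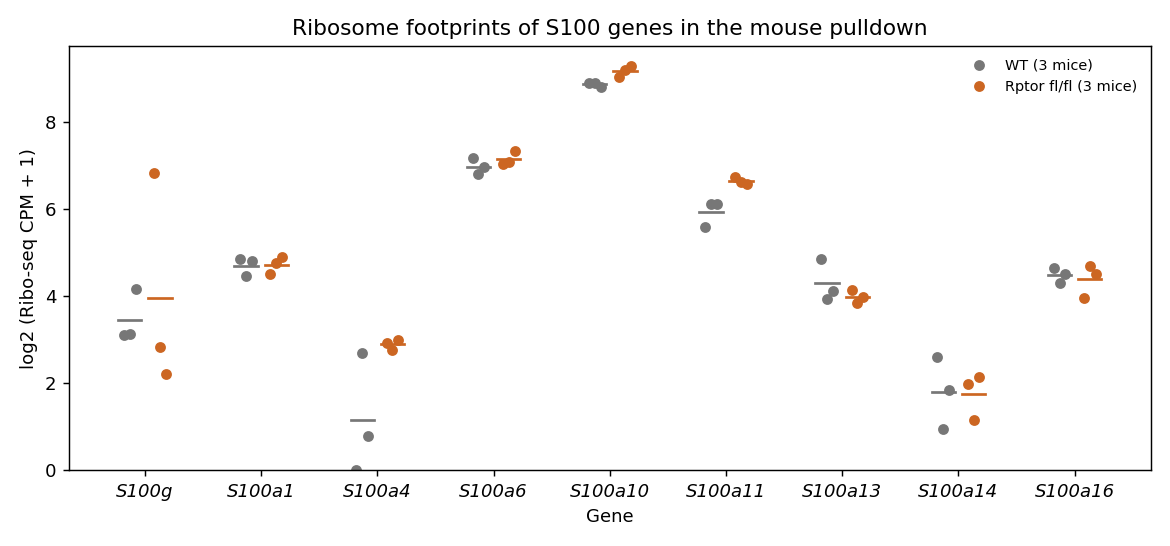
Ribo-seq level of each gene in the mouse pulldown as log2 (CPM + 1), with 1 point per mouse in replicate order from left to right and a bar at the group mean of the plotted values. S100a10, S100a11 and S100a4 do not overlap between genotypes, and the S100g point of Rptor fl/fl mouse 1 (113 CPM) lies above the other 5 mice.

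Wider lists give the setting. Of 18 genes for S100 binding partners 2 rose and 1 fell in Rptor fl/fl against WT mRNA (18 tested, median 0.184), where 22.6% of all genes passed, and 4 rose and 6 fell in SCe against WT (17 tested, median −0.093), where 42.3% passed. In Rptor fl/fl against SCe mRNA 8 rose and 4 fell (18 tested, median 0.574), where 42.7% passed. In footprints 3 rose and 1 fell among 14 tested in organoids (16.5% of all genes passed), and 2 rose and none fell among 15 in mice (13.4%). Of 17 other EF-hand calcium sensors, such as the calmodulins and calpains, 16 were tested in each comparison. Against the same shares of all genes, 2 rose and 2 fell in Rptor fl/fl against WT mRNA, 3 rose and 5 fell in SCe against WT, 5 rose and 3 fell in Rptor fl/fl against SCe, 5 rose and 1 fell in organoid footprints, and 4 rose and none fell in mice. No list was tested as a group.

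Of the 8 other S100 genes only S100a8 and S100a9, the alarm proteins of neutrophils and inflamed epithelium, reached 10 CPM in any group. They rose in Rptor fl/fl mice (3.93 and 4.12, adjusted p = 1.72e-07 and 4.33e-09), and their reads in organoid RNA-seq were 0 for S100a8 and at most 4 for S100a9. The genes whose mRNA was most like that of a member over the 7 RNA-seq lines and libraries, by Pearson's r of log2 (CPM + 1) among 9573 genes of at least 10 CPM, were Kansl3 for S100a1 (r = 0.9990), Zfp46 for S100a6 (0.9979), Setd2 for S100a14 (0.9984), Mal2 for S100a16 (0.9990), Btd for S100g (0.9963), Mettl4 for S100a11 (0.9929), Exph5 for S100a13 (0.9937), Cycs for S100a10 (0.9824) and Ten1 for the scarce S100a4 (0.9823). Next came, in the same order, Sh3gl2 (0.9973), Rasa2 (0.9970), Pear1 (0.9981), Tpm1 (0.9976), Rpl30 (0.9956), Trmt13 (0.9921), Tpt1 (0.9896), Dbf4 (0.9753) and Svil (0.9700). These 7 points fall into 3 groups that share culture conditions and libraries, and the values are a description.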

How the data were processed

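Per the labels and the study's methods, the authors used cutadapt 1.18 to trim Ribo-seq adapters, discarded rRNA reads, and ran Salmon 1.1.0 on protein-coding sequences of GENCODE vM21 (mm10). The deposited files hold unscaled estimated counts (NumReads) for each sequence. RNA-seq was counted on 66244 transcripts, organoid Ribo-seq on 59120 coding sequences with 5′ untranslated regions as separate entries (2.97% to 6.99% of footprints, left out), and mouse Ribo-seq on 65862 sequences that include the 5′ region. A deposited table of the authors' own translation efficiency ratios, log2 changes and p-values was not used.

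Estimated counts were summed per gene, technical libraries were summed per line (23 libraries gave 19 samples), and sums were rounded. Tests used R 4.3.3 and edgeR 4.0.16 (filterByExpr with a minimum count of 10, TMM, quasi-likelihood test, Benjamini-Hochberg adjustment at 0.05 over all genes tested), each on the libraries of its own groups. For translation efficiency the assay by group interaction was tested. The fits were tested on simulated data. Alternatives were DESeq2 1.42.0, no count filter, an effective length offset, the replicate number as a block, technical libraries as replicates, and leaving out each sample. CPM are counts over the scaled library size, with RNA-seq, organoid Ribo-seq and mouse Ribo-seq scaled apart, each over all its samples. Whether the groups of a tested comparison overlap, and the Vdr means, used CPM scaled over the libraries of that comparison. In the ratios of footprints to mRNA the library size was not scaled. Levels per kilobase use the annotated length in both assays. The deposited effective length assumes fragments far longer than footprints, a reason that holds for Ribo-seq and not for RNA-seq. Effective length became the alternative instead of the main length. The mouse samples are separate animals. The study gives the WT and Rptor fl/fl RNA-seq as 2 biological replicates of each condition, with 2 technical replicates of each. Whether the numbered organoid cultures came from separate animals is not given for each library in the sources used here. For SCe cultures and organoid Ribo-seq the p-values may therefore measure technical spread. SCe cultures carry the same numbers in RNA-seq and Ribo-seq, and deviations of the 3 same-numbered pairs correlated at 0.295, 0.104 and 0.202, so a fit of translation efficiency that pairs them was added after seeing the data. All 9 members are named; partner genes, the 2 most similar genes with a mean of at least 10 CPM and other S100 genes of at least 10 CPM follow a rule. Members and lists were chosen with earlier results of these data known. Individual reads, and so their strand, were not analysed here.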

Additional observations from a re-analysis of the deposited data

Results flagged for a closer look

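S100a10 moved in opposite directions in 2 systems. Its mRNA was lower in both Rptor fl/fl organoid lines than in both WT lines (log2 fold change −0.42), and its footprints were higher in all 3 Rptor fl/fl mice than in all 3 WT mice (0.32). S100a4 showed the same opposition, with −1.74 in organoid mRNA and 1.70 in mouse footprints, both from few reads and neither past the threshold. The difference between organoids and mice was not tested for either gene, and the assay, the promoter driving Cre and the sequences counted differ between the systems.

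Footprints on the 5′ untranslated entry of S100g, which enter no comparison, were above the SCe level in each library with the label Rptor fl/fl, at 2.50, 2.35 and 2.66 per 1e6 counted footprints against 1.51, 0.904 and 0 in SCe libraries. They were 15, 15 and 22 footprints against 3, 1 and 0, so counting error is large, and the coding sequence of S100g moved the same way.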

How the results depend on the processing

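Over 545 values of single members under the alternatives, 465 kept direction and side of the threshold, 33 lost the call, 28 gained one and 19 changed sign. Treating technical libraries as replicates gave 8 called members and 7208 called genes in Rptor fl/fl against WT mRNA, and 2 and 1312 in translation efficiency, where DESeq2 gave 2 and 1206 and no count filter gave 203 genes. Between the groups compared, the labels share replicate numbers only as numbers. The study's methods mention an extra set of Rptor fl/fl animals induced in vitro for paired samples, without naming libraries. Deviations of same-numbered samples correlated at 0.144 to 0.303 in the fits of mRNA alone, with 2 pairs each, and at no more than 0.034 in footprints. In the translation efficiency fit, same-numbered Rptor fl/fl and SCe mRNA samples correlated at 0.371 and 0.349. Pairing SCe cultures across assays as a replicate block gave 1 member and 506 genes in translation efficiency and turned S100a10 to 0.0576. With the replicate block 7 members and 4751 genes were called in Rptor fl/fl against WT mRNA, in place of 5 and 3195. Among these members was S100g (−0.81, adjusted p = 0.00127). The block gave 3154 genes in SCe against WT mRNA, 3413 in Rptor fl/fl against SCe mRNA and 4 in translation efficiency. S100a10 turned to 0.00129 in translation efficiency and S100a16 to 0.00897 in mice.

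Leaving out 1 sample at a time, with a lone line assumed to vary like the others, gave 1 to 4 called members and 939 to 2126 genes in Rptor fl/fl against WT mRNA, 3 to 6 and 2027 to 9530 in SCe against WT, 5 to 8 and 2509 to 9101 in Rptor fl/fl against SCe, 2 to 6 and 669 to 2682 in organoid footprints, 0 to 1 and 25 to 951 in translation efficiency, and 1 to 3 and 897 to 1954 in mice. Signs turned within these ranges of log2 fold changes: for S100a10 in SCe against WT mRNA (−0.159 to 0.0762), for S100a10 (−0.622 to 0.0165), S100a11 (−0.631 to 0.283) and S100a13 (−0.0668 to 0.952) in organoid footprints, for S100a1 (−0.895 to 0.0154), S100a10 (−0.220 to 0.418) and S100a13 (−0.701 to 0.301) in translation efficiency, and in mice for S100a1 (−0.0618 to 0.168), S100a16 (−0.150 to 0.124) and S100g (−1.50 to 2.23). The cause was not tested. Depth limits S100a4, the footprints of S100a1, S100a13, S100a14 and S100a16 in SCe organoids, at most 70 in a library, and those of S100a14 in mice, at most 27. Per effective length, the order of the members stayed in WT mRNA and SCe footprints, while S100a10 and S100g changed places in Rptor fl/fl mRNA and 2 or 3 neighbours did in each other group.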
